A study of Mus musculus with 9 samples.

Results

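The genes described here encode the proteins of the cytosolic ribosome. They were chosen by symbol, as the Rpl, Rps and Rplp genes of the deposited count table whose symbol is the family prefix, a number and at most 1 of the letters a, x, l or y, with at least 90 counts summed over the 9 libraries. Of 76 symbols with this form, 73 reached the minimum, out of 31804 genes in the table. They are 28 genes of the small subunit (Rps) and 45 of the large subunit (Rpl, with Rplp0, Rplp1 and Rplp2), and they lie on 19 chromosomes. All 73 entered the test across genes, which ran on 16438 genes. The 3 that missed the minimum were the paralogs Rpl3l with 71 counts, Rpl39l with 8 and Rpl10l with 0, which allows a level of up to 0.103 CPM in the shallowest library. CPM are counts relative to the library's total, scaled here with TMM factors, and such a limit covers counting error only.

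The study asked how hippocampal transcripts differ once Camta1, a transcription activator that binds calmodulin, is lowered. The groups were shRNA A and shRNA B, different hairpins against Camta1, and a control shRNA with no target, with 3 animals in each. All animals were male mice of the inbred strain C57BL/6NCrl, and all received a recombinant adeno-associated virus in the dorsal hippocampus when 8 weeks old, so the control animals carry a virus and a hairpin too. Tissue was taken 3 weeks after the injection from the area that showed mCherry fluorescence, and polyA RNA was sequenced without keeping its strand. The dissected tissue holds infected and uninfected cells of several types, and the labels do not say which cells the virus entered or which promoter drove the hairpin.

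A cytosolic ribosome is built of ribosomal RNA and about one copy of each ribosomal protein, and the genes are expressed in nearly all cells. Most of their mRNAs begin with a C followed by a run of pyrimidines, the terminal oligopyrimidine or TOP motif, through which the TOR kinase pathway controls how much of the mRNA is translated. Translation can therefore change with no change in mRNA level, and these libraries measured mRNA only. In neurons, ribosomes and ribosomal protein mRNAs are found in dendrites and axons as well as in the cell body. Most mouse ribosomal protein genes also have processed pseudogenes, copies of their mRNA elsewhere in the genome, so that a short read may fit several places.

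The annotated starts of genes on which the results turn are shown because the TOP motif is the feature that the family is known to share. Each window holds 10 bases before the annotated first base of a transcript and 20 bases from it on, taken from RefSeq on build GRCm38.p6, on the strand of the gene. Capitals mark a C followed by at least 4 pyrimidines that begins within 5 bases of the annotated start.
Rps6, chr4:86857348-86857377, minus strand: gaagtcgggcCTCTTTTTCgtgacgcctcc
Rpl13a, chr7:45128726-45128755, minus strand: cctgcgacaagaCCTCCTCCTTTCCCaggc
Rps27l, chr9:66946076-66946105, plus strand: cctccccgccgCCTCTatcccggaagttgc
Rpl7a, chr2:26910797-26910826, plus strand: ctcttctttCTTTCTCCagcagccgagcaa
Rpl18, chr7:45718061-45718090, plus strand: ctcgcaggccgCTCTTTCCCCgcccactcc
Rplp0, chr5:115559457-115559486, plus strand: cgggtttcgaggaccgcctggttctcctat
Rps4x, chrX:102189372-102189401, minus strand: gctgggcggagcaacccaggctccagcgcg
Rps15, chr10:80292421-80292450, plus strand: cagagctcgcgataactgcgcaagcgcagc
In Rps6 the run begins at the annotated first base. In Rpl13a, Rps27l, Rpl7a and Rpl18 it begins 1 or 2 bases away. The windows of Rplp0, Rps4x and Rps15 hold no such stretch near the annotated start. Rps27l has another annotated start, in the window chr9:66946403-66946432, and no such stretch lies near that one. A start in the annotation need not be the base at which transcription begins in hippocampus, and the absence of a run says only that these letters are not in that place.

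Start windows were used for 53 of the 73 genes. Members on chromosome 18, Rps14 and Rpl17, were left out of this set, while all genes with a window include that chromosome. A C followed by at least 4 pyrimidines stood exactly at an annotated start in 12 of these genes (22.6%). Of all 27025 genes with a window, 3.01% had it there. Within 5 bases of a start it was present in 27 genes (50.9%), against 21.2%. Both counts include stretches that lie inside a longer run of pyrimidines. In the 300 bases around the start (250 before, 50 from it on), searched on both strands, the ETS core CCGGAAG was present in 41.5% of the 53 genes and in 9.93% of all genes. The GC box GGGCGG was present in 60.4% against 38.2%, and the YY1 core AAGATGG in 15.1% against 7.28%. TATAAA was present in 11.3% of the ribosomal protein genes and in 15.7% of all genes. These matches are letters in a window, not binding sites.

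Total counts lay between 29123744 and 38189288, and before TMM scaling a single read was worth 0.0262 to 0.0343 CPM. Camta1 itself was lower in all 6 hairpin libraries than in all 3 controls, at 174 to 254 CPM with shRNA A, 145 to 266 CPM with shRNA B and 427 to 455 CPM with the control shRNA. Genes of the mitochondrial genome took 3.285% to 4.138% of counts. Control replicate 3, shRNA A replicate 3 and shRNA B replicate 2 stand apart in values used below. In control replicate 3 the choroid plexus markers summed to 1039 CPM, against 23.67 and 30.75 CPM in the other controls, 29.53 to 45.27 CPM with shRNA A and 28.96 to 34.23 CPM with shRNA B. In shRNA A replicate 3, genes of at least 54% GC lay a median of 0.082 above their mean over the 9 libraries (log2 CPM). Genes under 48% GC lay 0.0674 below it. This shift was the largest but not the only one. Control replicate 1 was shifted the other way, at -0.0687 and 0.0617, and so was shRNA A replicate 1, at -0.0557 and 0.0476. shRNA B replicate 3 was shifted the same way, at 0.0519 and -0.0419. shRNA B replicate 2 had the lowest Camta1, 145 CPM, and the highest share of counts in ribosomal protein genes. Since it was picked partly by that share, a lower family value without it follows from the choice. Control replicate 3, shRNA A replicate 3 and shRNA B replicate 2 were left out in turn where a contrast uses them. For contrasts with the control, family medians are given with and without each of them. So are counts of members above 0 and at an unadjusted p under 0.05. The later splits and gene lists rest on all libraries.

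In the control hippocampus the 73 genes ranged over 405-fold in CPM, and their median was 14.5 CPM. Per kilobase of exon, a scale that allows for length, the median was 6.55 CPM per kb and the range 592-fold. The length joins all annotated exons of a gene, which need not be the mRNA expressed. Divided by the longest transcript instead, Rps14 moved from 31.3 to 75.9 CPM per kb and Rps15 from 344 to 378. Rps15 (small subunit) was highest at 344 ± 11 CPM per kb (SD, n = 3, as for all levels per length here), followed by Rplp1, an acidic protein of the ribosomal stalk, at 299 ± 26. Rpl8 and Rpl4, both of the large subunit core, stood at 172 ± 4.9 and 155 ± 2.8. These 4 are separated from their neighbours in the order by more than the sum of their SDs. The 5 lowest were Rps23 at 1.19 ± 0.11, Rpl17 at 1.11 ± 0.14, Rps29 at 1.11 ± 0.018, Rpl24 at 1.08 ± 0.071 and Rps28 at 0.581 ± 0.1 CPM per kb. Among these, Rps28 alone lies apart from the others by more than the SDs. With the longest transcript as the length, Rps29 ranks 68 of 73 and Rpl9 takes its place.

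The proteins are made in near equal numbers, but the mRNA counts are not equal, and the ability to place reads differs between genes. Of the 50-base stretches of each gene's coding transcripts, between 4.9% and 100% were found in no other gene of the annotation, with a median of 61.7%. The genes had a median of 9 pseudogenes that share a 50-base stretch with them. Genes with at least 75% unique stretches had a median control level of 21.3 CPM (n = 18), those between 25% and 75% had 14.4 CPM (n = 45), and those under 25% had 6.02 CPM (n = 10). Per length the medians of these classes were 6.68, 7.42 and 3.38 CPM per kb, so that the first and second change places. Across the 73 genes, which are not independent replicates, the unique share and log2 CPM per kb had r = 0.18 and rho = 0.17, or 0.36 and 0.34 with stretches of 100 bases. Rps6, the classical substrate of S6 kinase, had 15.4% unique stretches and 2.87 ± 0.683 CPM in controls. Rpl24 had 85.4% and was among the lowest per kb, though not in CPM. Its 8.04 CPM are divided by 7440 bases of annotated exon. How the submitters handled reads with several places is not stated in these sources, so a level here is that of the reads assigned to the gene. A level of a single gene is uncertain to that extent.

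**Figure D1:**
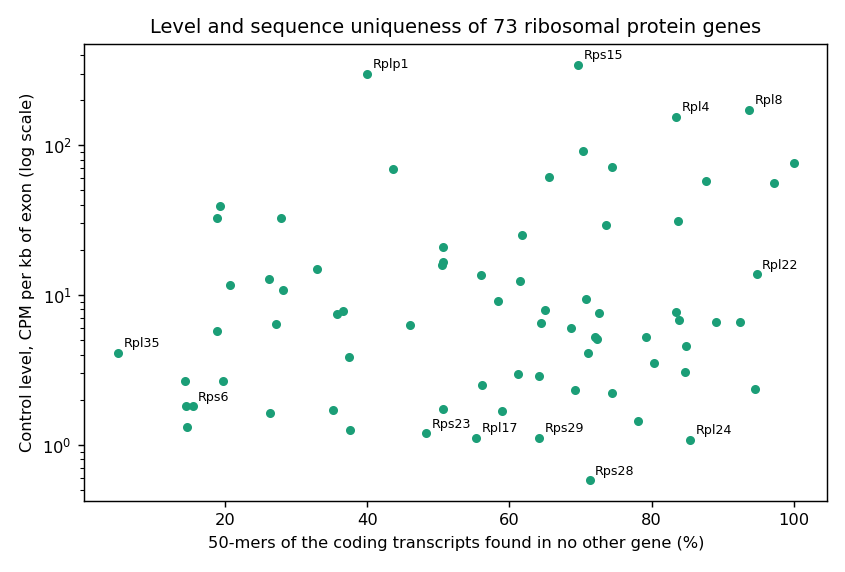
Control level of each of the 73 genes (mean of 3 libraries, CPM per kb of exon, log scale) against the share of its 50-base stretches that occur in no other gene (%). The 10 genes under 25% unique reach 39.1 CPM per kb at most, while low levels per kb occur at high uniqueness too. Rpl24 is such a gene, with 7440 bases of annotated exon.

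Control libraries repeated these levels closely. The coefficient of variation over the 3 controls had a median of 6.74% over the 73 genes, against 7.96% over all genes tested and 7.16% over the 14017 genes in the same range of levels. The family took 0.2859%, 0.2859% and 0.318% of all counts with shRNA A, 0.3072%, 0.3264% and 0.291% with shRNA B, and 0.2915%, 0.2744% and 0.2694% with the control shRNA. The means were 0.297 ± 0.019% with shRNA A, 0.308 ± 0.018% with shRNA B and 0.278 ± 0.012% with the control shRNA (SD, n = 3 each), and each shRNA group overlaps the controls, shRNA B by 0.291% against 0.2915%. Summed TMM-scaled CPM were 2882, 2833 and 3224 with shRNA A, 3034, 3200 and 2930 with shRNA B, and 2879, 2830 and 2689 with the control shRNA, and on that scale the shRNA B libraries lie above the controls. Ribosomal protein mRNAs are usually among the most abundant of a cell, and these shares are small for a polyA library. What part of the family's reads was assigned to it was not tested. In bulk tissue, fewer cells of a type and less RNA per cell cannot be told apart. The 491 pseudogenes in the table that share a 50-base stretch with a member took a share of similar size, 0.212%, 0.2127% and 0.234% with shRNA A, 0.229%, 0.2418% and 0.2153% with shRNA B, and 0.2139%, 0.2012% and 0.1967% with the control shRNA. The pseudogene share with shRNA A overlaps the controls, and with shRNA B it lies above them, replicate 3 by 0.2153% against 0.2139%. The same library was highest in its group in both sums.

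**Figure D2:**
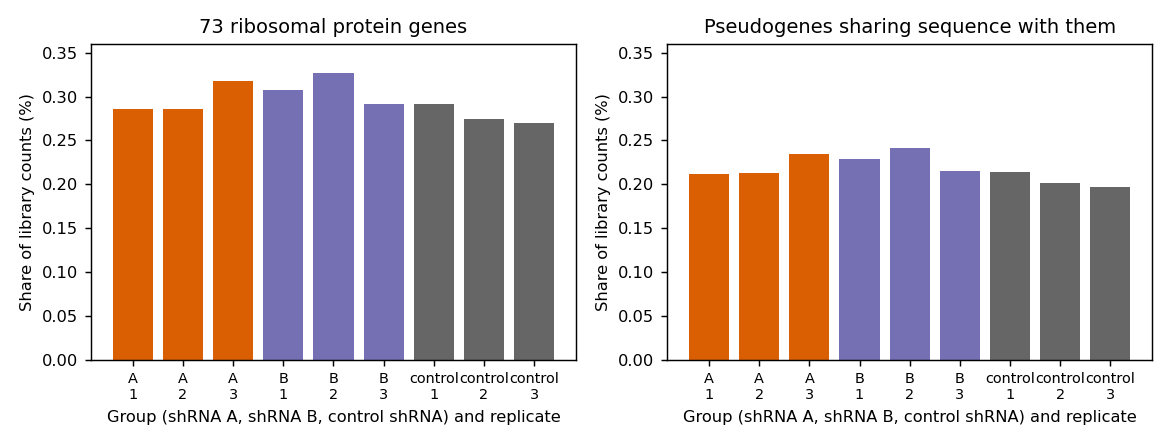
Share of each library's counts (%) in the 73 ribosomal protein genes (left) and in the 491 pseudogenes that share sequence with them (right), 1 bar per library, for shRNA A, shRNA B and control shRNA. The highest bar in both panels is shRNA B replicate 2, at 0.3264% and 0.2418%, and in the left panel the bars of shRNA A and of shRNA B overlap those of the controls.

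Library by library, the family differed by small amounts, and not all genes moved together. The median of the 73 genes, each as log2 CPM minus its own mean over the 9 libraries, was -0.0187, -0.0357 and 0.0758 with shRNA A, 0.0539, 0.124 and -0.00537 with shRNA B, and -0.0215, -0.0612 and -0.123 with the control shRNA. In shRNA B replicate 2, 67 of 73 genes lay above their mean, and in control replicate 3, 11 did. The others held 29, 27 and 46 such genes with shRNA A, 52 and 32 in shRNA B replicates 1 and 3, and 34 and 14 in control replicates 1 and 2. In shRNA A replicate 3 the small-subunit genes had a median of 0.138 and the large-subunit genes 0.0227, while the 10 genes under 25% unique were at -0.0671. The shRNA A libraries overlap the controls through replicate 2, and the 3 shRNA B libraries lie above the controls, replicate 3 by the least. Genes that share a library also share whatever set that library apart, so the 73 values of a library are not independent.

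**Figure D3:**
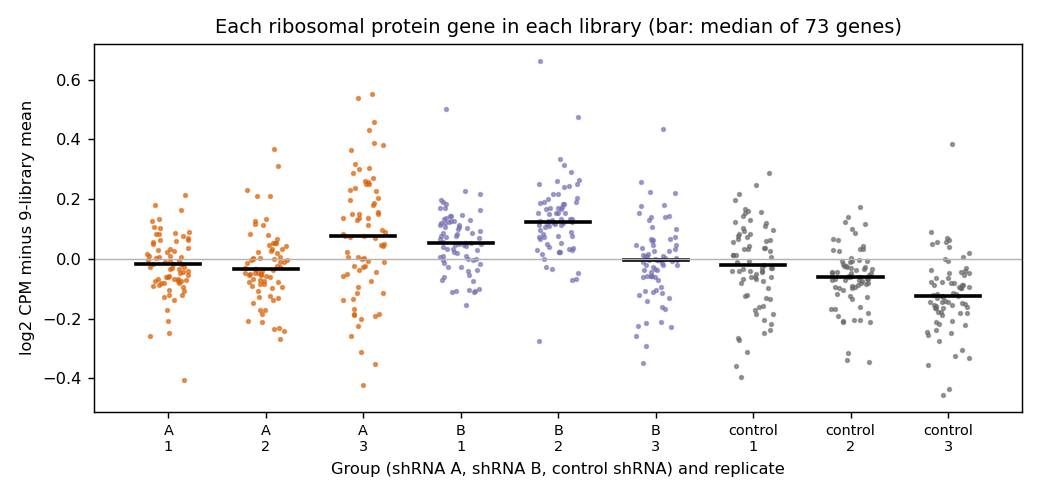
Each point is 1 of the 73 genes in 1 library, as log2 CPM minus that gene's mean over the 9 libraries, and the black bar is the median, for shRNA A, shRNA B and control shRNA. The medians run from -0.123 in control replicate 3 to 0.124 in shRNA B replicate 2.

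With shRNA A, no ribosomal protein gene passed edgeR's quasi-likelihood test (smallest Benjamini-Hochberg adjusted p = 0.656), where 0.0243% of all genes did. DESeq2 and limma-voom also called 0 of the 73, with 0.262% and 0.00608% of all genes called. Log2 fold changes of 55 of the 73 were above 0 (75.3%), against 50.1% of all genes tested, with a median of 0.08 and a range of -0.31 to 0.66, while the median of all genes was 0.000. At an unadjusted p under 0.05, 5 genes were higher (6.85%) and 0 lower, against 3.52% and 3.39% of all genes. Without control replicate 3, 1 gene was higher at that p (all genes: 2.67%), 49 were above 0 and the median was 0.046. Without shRNA A replicate 3, 1 gene was higher (all genes: 2.61%), 48 were above 0 and the median was 0.047. Without control replicate 2 there were 3 higher and without control replicate 1 there were 8, beside 3.66% and 2.28% of all genes. Without shRNA A replicate 1 or 2 there were 10, beside 4.03% and 2.99%. All shRNA A libraries lay above all controls in 13 of the 73 (17.8%) and below them in 1 (1.37%), where 6.84% and 5.65% of all genes did. Leaving out a library can only add to such counts: the 13 became 16 without control replicate 3 and became 15 without shRNA A replicate 3, beside 11.6% and 11.8% of all genes. Without control replicate 1 there were 25, and without control replicate 2 or shRNA A replicate 2 there were 21, beside 11.1%, 13.6% and 10.9%.

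The 5 genes with the smallest p in this contrast were Rps29, Rplp0, Rps19, Rps20 and Rps15. Rps29, a small zinc-binding protein of the small subunit, had 0.895, 1.29 and 1.47 CPM with shRNA A and 0.78, 0.764 and 0.756 CPM with the control shRNA. All 3 shRNA A libraries are above the controls, but the gene is the lowest of the family in CPM, with 23 or 24 reads in each control, and the log2 fold change of 0.66 ± 0.23 (SE) had an edgeR adjusted p of 0.656. Rplp0, which anchors the stalk to the ribosome, had 107, 113 and 122 CPM with shRNA A and 103, 103 and 96.7 CPM with the control shRNA, a log2 fold change of 0.17 ± 0.069 (SE, edgeR adjusted p = 0.702). Rps19, the gene most often mutated in Diamond-Blackfan anaemia in humans, had 24, 22.1 and 29.1 CPM with shRNA A, against 21.3, 21 and 21.7 CPM with the control shRNA. Its log2 fold change was 0.23 ± 0.098 (SE, edgeR adjusted p = 0.72), and 0.11 without shRNA A replicate 3.

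Rps20 and Rps15 share that dependence on 1 library. Rps20 had 29.4, 27.7 and 35.9 CPM with shRNA A and 28.2, 26.8 and 25.4 CPM with the control shRNA, and its groups overlap. Rps15 had 229, 225 and 287 CPM with shRNA A and 213, 224 and 212 CPM with the control shRNA. The log2 fold changes were 0.21 ± 0.092 and 0.19 ± 0.087 (SE, edgeR adjusted p = 0.72 and 0.721), and without shRNA A replicate 3 they were 0.09 and 0.07. In shRNA A replicate 3, the 23 members of at least 54% GC lay a median of 0.15 above their mean and the 15 members under 48% GC lay 0.00761 above it. The part of that library's GC shift in the family values was not tested.

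With shRNA B, no gene of the family passed edgeR's test either, where 1.02% of all genes did, and the smallest adjusted p was 0.103. DESeq2 called 1 of 73, Rpl13a, with 2.44% of all genes called, and limma-voom called 0, with 0.475%. Log2 fold changes of 61 of the 73 were above 0 (83.6%), against 50.3% of all genes, with a median of 0.13 and a range of -0.10 to 0.62. At an unadjusted p under 0.05, 16 genes were higher (21.9%) and 0 lower, against 6.41% and 6.42% of all genes. Without control replicate 3 that count was 5, against 5.95% of all genes higher, and without shRNA B replicate 2 it was 6, against 4.75%. The medians were then 0.082 and 0.10, and 59 and 57 of the 73 were above 0. The count was 14 without control replicate 1 and 11 without control replicate 2, beside 4.93% and 5.7%. It was 11 without shRNA B replicate 1 and 16 without shRNA B replicate 3, beside 6.27% and 6.33%. Without shRNA A replicate 1, 2 or 3 it was 12, 13 and 19, beside 6.17%, 5.94% and 6.74%. The 3 shRNA B libraries lay above the 3 controls in 24 of the 73 (32.9%) and below them in 1 (1.37%), against 9.27% and 8.88% of all genes. There were 25 above without control replicate 3 or shRNA B replicate 2, beside 14.4% and 13.2% of all genes, and 39 without control replicate 1 or shRNA B replicate 3, beside 13.5% and 15.5%.

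Rpl13a encodes a protein of the large subunit that can also leave the ribosome to silence inflammatory mRNAs, and its introns carry small nucleolar RNAs. It had 4.24, 6.54 and 5.57 CPM with shRNA B, 3.77, 3.6 and 3.6 CPM with shRNA A, and 3.19, 3.53 and 3.87 CPM with the control shRNA. Every shRNA B library is above every control and every shRNA A library, while shRNA A overlaps the controls. With shRNA B its log2 fold change of 0.62 ± 0.16 (SE) had an adjusted p of 0.103 in edgeR's test and 0.0487 in DESeq2's. With shRNA A it was 0.05 ± 0.16 (SE, edgeR adjusted p = 0.968). Over all alternatives the adjusted p for shRNA B lay between 0.02 and 0.371, and without shRNA B replicate 1 edgeR called it, at 0.78 and an adjusted p of 0.02. In the authors' deposited table, whose p comes from a likelihood ratio test over all groups and not from shRNA B against control, it is the 1 gene of the 73 with an adjusted p under 0.05, at 0.0446, with log2 fold changes of 0.05 for shRNA A and 0.62 for shRNA B, where 2.51% of all genes with an adjusted p pass. Of its 50-base stretches 58.9% are unique, and 5 pseudogenes share sequence with it.

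Rps27l, a paralog of Rps27 that p53 is known to induce, was second. It had 7.06, 8.65 and 7.43 CPM with shRNA B, 6.49, 5.69 and 4.84 CPM with shRNA A, and 6.17, 5.54 and 4.91 CPM with the control shRNA. The shRNA B libraries lie above all others and the shRNA A libraries overlap the controls. Its log2 fold changes were 0.48 ± 0.14 for shRNA B (SE, edgeR adjusted p = 0.145) and 0.04 ± 0.14 for shRNA A (edgeR adjusted p = 0.972). The 18 p53 targets on a separate list, which does not hold Rps27l, summed to 575.7 to 648.2 CPM with shRNA B, 540.2 to 589.1 CPM with shRNA A and 482.5 to 487.5 CPM with the control shRNA, and 6 of them were called higher with shRNA B and 1 was called higher with shRNA A, beside 1.02% and 0.0243% of all genes called. The relation of these to Rps27l was not tested.

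The next 3 by p were Rpl7a, Rps4x and Rpl18. Rpl7a, of the large subunit, had 12.5, 13.9 and 11.5 CPM with shRNA B and 9.26, 11 and 10.2 CPM with the control shRNA, and the groups do not overlap. With 120 pseudogenes that share sequence with it and 18.8% unique stretches, its counts are among the less certain. Rps4x, the X-linked small-subunit gene, had 64, 67.4 and 54.7 CPM with shRNA B and 56.4, 52.1 and 50.3 CPM with the control shRNA, with overlap. Rpl18 had 25.3, 26.5 and 23.4 CPM with shRNA B and 20.4, 22.2 and 21.2 CPM with the control shRNA, without overlap. Their log2 fold changes were 0.31 ± 0.098, 0.23 ± 0.078 and 0.24 ± 0.082 (SE), with edgeR adjusted p of 0.192, 0.236 and 0.247.

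**Figure D4:**
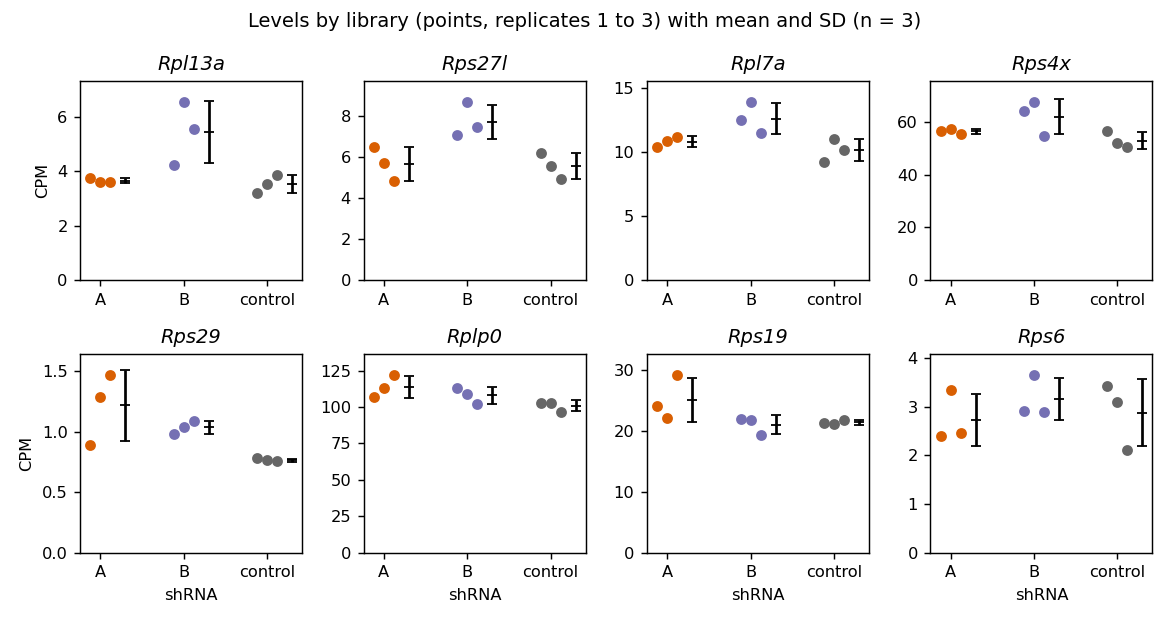
CPM of 8 genes in each library (points, replicates 1 to 3 from left to right) with mean and SD (n = 3) for shRNA A, shRNA B and control shRNA, each axis starting at 0. Rpl13a and Rps27l are higher in all shRNA B libraries than in any other library, whereas Rps29 is higher in all shRNA A and shRNA B libraries than in the controls, at about 1 CPM.

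The mean of both shRNAs against control gave 0 calls among the 73 in edgeR (0.0973% of all genes), DESeq2 (1.54%) and limma-voom (0.0791%), with a smallest edgeR adjusted p of 0.344. Of the 73, 63 had log2 fold changes above 0 (86.3%), against 50.5% of all genes, with a median of 0.11. Those above 0 were 52 without control replicate 3, with a median of 0.078. They were 60 without shRNA A replicate 3 (median 0.095) and 59 without shRNA B replicate 2 (median 0.092). At an unadjusted p under 0.05, 14 were higher (19.2%) and 0 lower, against 5.22% and 5.18% of all genes. Without control replicate 3, 1 gene was higher at that p, beside 4.45% of all genes. Without control replicate 2 or shRNA B replicate 2 there were 6, beside 4.82% and 4.98%. Without shRNA B replicate 1 there were 8 and without shRNA A replicate 3 there were 9, beside 5.22% and 4.61%. The highest count was 18, without shRNA B replicate 3, beside 4.96%. This contrast and the 2 single ones share the control libraries. Rps14 and Rpl37 had the smallest p along with Rps29. Rps14 had 86.6, 85.5 and 82.7 CPM with shRNA A, 86.6, 98 and 81 CPM with shRNA B, and 79.7, 78.4 and 66.8 CPM with the control shRNA. All 6 hairpin libraries are above the 3 controls, by the smallest margin against control replicate 1, and the log2 fold change was 0.21 ± 0.074 (SE, edgeR adjusted p = 0.344), or 0.13 without control replicate 3. Rpl37 had 11.2, 10.9 and 12.3 CPM with shRNA A, 10.9, 12.5 and 12.4 CPM with shRNA B, and 10.5, 9.9 and 9.82 CPM with the control shRNA, a log2 fold change of 0.22 ± 0.08 (SE, edgeR adjusted p = 0.369). Rpl18 followed, at 0.19 ± 0.072 (SE), with overlap.

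**Figure D5:**
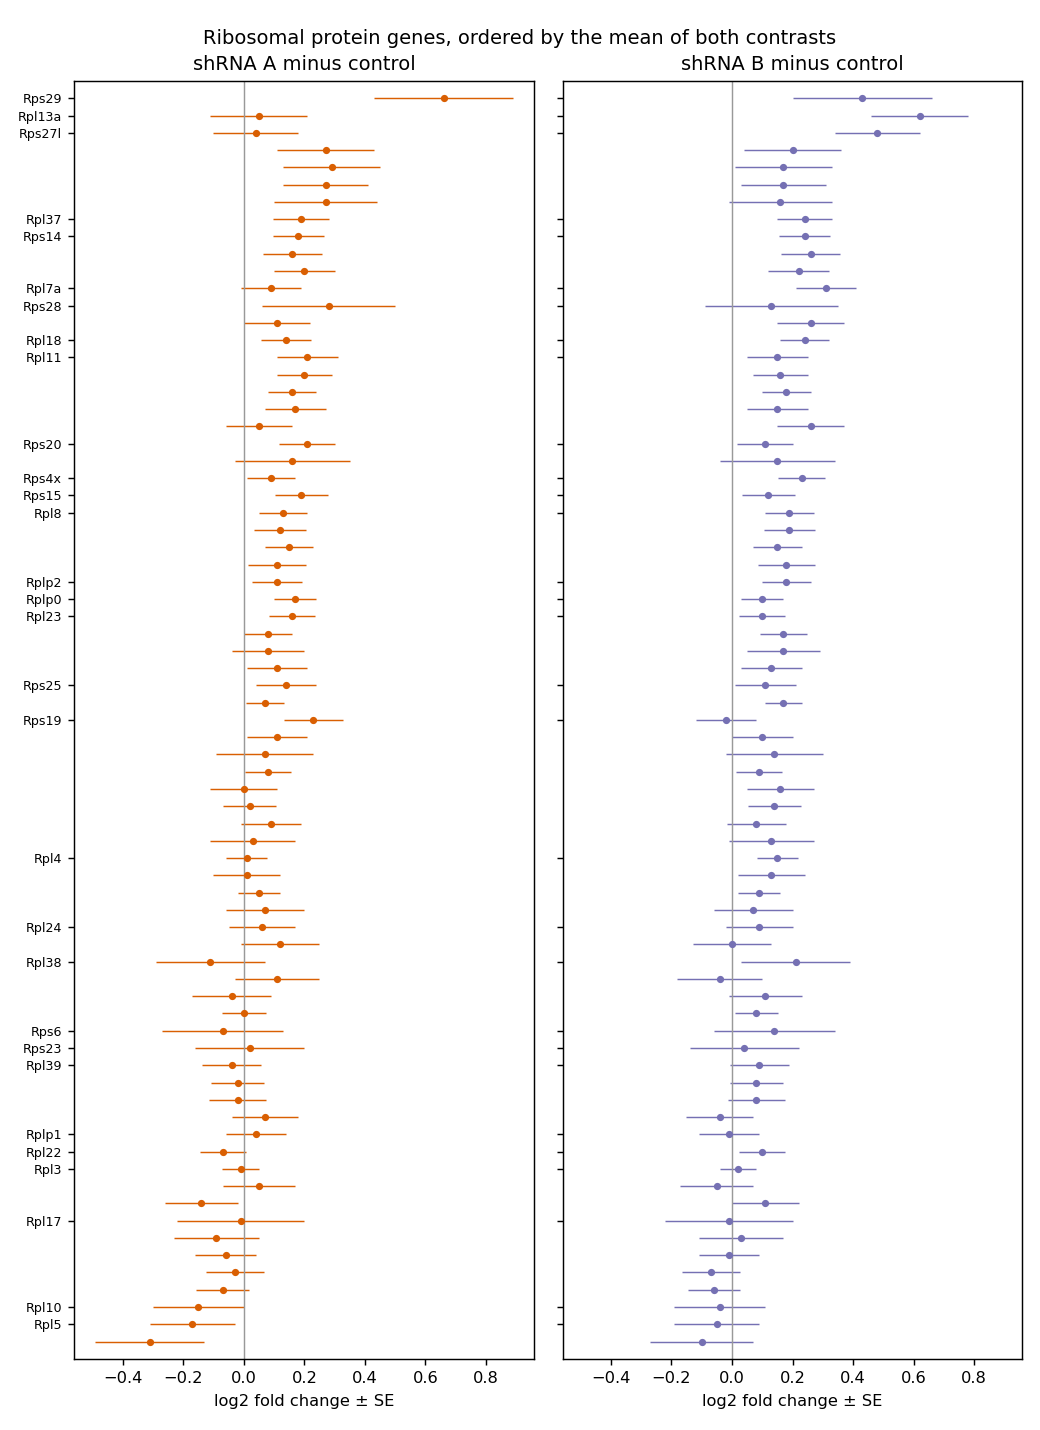
Log2 fold change ± SE (edgeR) of each of the 73 genes for shRNA A (left) and shRNA B (right), both minus control. Genes are ordered by the mean of both contrasts, and those given with values in the text are labelled, except Rpl9. Most points lie right of 0 in both panels (55 and 61 of 73). Rps29 lies farthest right for shRNA A, at 0.66, and Rpl13a for shRNA B, at 0.62.

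The direct difference between the hairpins, shRNA B minus shRNA A, had 0 calls in the family in edgeR, which called 0% of all genes, in DESeq2 (0.764%) and in limma-voom (0%). At an unadjusted p under 0.05, 5 of the 73 were higher with shRNA B and 1 lower, against 4.55% and 4.79% of all genes, and the libraries did not overlap in 6 (8.22%) upward and 1 (1.37%) downward, against 7.29% and 6.95%. The 5 became 2 without shRNA A or shRNA B replicate 1, beside 3.5% and 4.45% of all genes higher. They became 3 without control replicate 3, shRNA A replicate 2 or shRNA B replicate 2, beside 4.51%, 4.13% and 2.72%. Without shRNA A replicate 3 there were 5 and without shRNA B replicate 3 there were 7, beside 4.17% and 6.04%. The median was 0.05, and it was 0.003 without shRNA B replicate 2, 0.030 without shRNA A replicate 2 and 0.077 without shRNA A replicate 3. Rpl13a and Rps27l had the largest differences, 0.57 ± 0.16 and 0.44 ± 0.13 (SE, edgeR adjusted p = 0.272 and 0.328). Rps19 was the 1 gene lower, at -0.26 ± 0.098 (SE, edgeR adjusted p = 0.433), and at -0.14 without shRNA A replicate 3. Rpl7a and Rpl22 were at 0.22 ± 0.097 and 0.17 ± 0.076 (SE, edgeR adjusted p = 0.514 and 0.525). Rpl22, a protein of the large subunit that also binds cellular RNAs, had 44.6, 45.4 and 38.7 CPM with shRNA B and 38.4, 38.9 and 37.2 CPM with shRNA A.

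Genes named for a known role gave the following values. Of the stalk, which recruits the elongation factors, Rplp1 had 148, 133 and 180 CPM with shRNA A, 140, 153 and 153 CPM with shRNA B, and 146, 163 and 138 CPM with the control shRNA, and the groups overlap. Rplp2, its partner in the stalk, had 11.8, 11.8 and 11.3 CPM with shRNA A, 12, 12.2 and 12.4 CPM with shRNA B, and 10, 11.1 and 11.3 CPM with the control shRNA. Every hairpin library of Rplp2 lies above every control, though shRNA A replicate 3 and control replicate 3 both round to 11.3 CPM. The log2 fold changes were 0.11 ± 0.082 with shRNA A and 0.18 ± 0.081 with shRNA B (SE, edgeR adjusted p = 0.816 and 0.39). Rps6 had 2.4, 3.35 and 2.45 CPM with shRNA A, 2.92, 3.65 and 2.9 CPM with shRNA B, and 3.43, 3.09 and 2.11 CPM with the control shRNA, with no order between the groups.

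Rpl5, Rpl11 and Rpl23 bind Mdm2, the ligase that degrades p53, when ribosome assembly is disturbed. Rpl11 had 17.8, 18.9 and 21.7 CPM with shRNA A, 20.1, 19.5 and 16.3 CPM with shRNA B, and 17.4, 17.8 and 15.3 CPM with the control shRNA. Rpl23 had 18.9, 18.9 and 17.6 CPM with shRNA A, 18.6, 17.2 and 17.2 CPM with shRNA B, and 15.4, 17.2 and 16.9 CPM with the control shRNA. Rpl5 had 4.47, 5.05 and 4.22 CPM with shRNA A, 5.17, 5.53 and 4.15 CPM with shRNA B, and 5.66, 4.71 and 5.07 CPM with the control shRNA. Log2 fold changes for shRNA A and for shRNA B were 0.21 ± 0.1 and 0.15 ± 0.1 in Rpl11 and 0.16 ± 0.076 and 0.1 ± 0.076 in Rpl23, while Rpl5 had -0.17 ± 0.14 and -0.05 ± 0.14 (SE), and the second of these was 0.06 without shRNA B replicate 3. Rpl11 was at 0.13 for shRNA A without shRNA A replicate 3 and at 0.08 for shRNA B without control replicate 3, and Rpl23 at 0.06 for shRNA B without control replicate 1. Every hairpin library of Rpl23 lies above every control, by less than the digits shown for shRNA B. In Rpl11 that holds for shRNA A only, again by less than the digits shown, and in Rpl5 the groups overlap. None of the 3 genes passed the test (edgeR adjusted p 0.61 or more).

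Rpl10, which joins the large subunit late in its assembly, and Rpl39, a short protein of the exit tunnel, are X-linked like Rps4x. Rpl10 had 2.97, 3.31 and 2.81 CPM with shRNA A, 3.31, 3.3 and 3.22 CPM with shRNA B, and 3.93, 2.8 and 3.37 CPM with the control shRNA. Rpl39 had 11.7, 9.59 and 10.8 CPM with shRNA A, 11.6, 11.4 and 12.2 CPM with shRNA B, and 11.9, 10.8 and 10.3 CPM with the control shRNA. Rpl3, the partner of the muscle paralog Rpl3l, averaged 47.1 ± 0.71 CPM with shRNA A, 48.3 ± 2.78 CPM with shRNA B and 47.5 ± 1.19 CPM with the control shRNA (SD, n = 3). Its log2 fold changes of -0.01 ± 0.061 and 0.02 ± 0.061 (SE) are among the smallest of the family. Rpl38, which in mouse embryos affects the translation of Hox mRNAs, had 3.96, 4.15 and 3.34 CPM with shRNA A, 5.92, 3.43 and 4.86 CPM with shRNA B, and 3.8, 4.27 and 4.28 CPM with the control shRNA. Rps25, which some viral and cellular mRNAs need for initiation at internal entry sites, averaged 22.9 ± 2.59 CPM with shRNA A, 22.4 ± 2.5 CPM with shRNA B and 20.9 ± 1.28 CPM with the control shRNA (SD, n = 3).

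Split by subunit, the small-subunit genes had a median log2 fold change of 0.129 with shRNA A (26 of 28 above 0) and 0.139 with shRNA B (26 of 28), and the large-subunit genes 0.0614 (29 of 45) and 0.111 (35 of 45). These splits and the following ones were chosen after values were seen and carry no test. For genes with at least 75%, 25% to 75% and under 25% unique stretches, the shRNA A medians were 0.0565, 0.0909 and 0.0844. The shRNA B medians of the same classes were 0.111, 0.127 and 0.139. By GC content, genes of at least 54%, 48% to 54% and under 48% had medians of 0.109, 0.082 and 0.0361 for shRNA A, against control, and of 0.127, 0.149 and 0.075 for shRNA B. The 27 genes with a pyrimidine run within 5 bases of a start, such as Rps6 and Rpl13a above, had medians of 0.0361 with shRNA A and 0.135 with shRNA B. The 26 genes whose windows hold none, such as Rplp0 and Rps15, had 0.107 and 0.111. In each of these classes the median was above 0 in both contrasts.

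Related genes that the symbol pattern leaves out had similar medians. They are Rpsa, Fau, Gnb2l1, Rpl22l1, Rpl7l1 and Rpl36al, the 6 of 8 listed genes that were found. With shRNA A and shRNA B edgeR called 0 of the 6, beside 0.0243% and 1.02% of all genes. The median was 0.09 with shRNA A, where 5 were above 0 and Rpl22l1 was at -0.08. It was 0.12 with shRNA B, where all 6 were above 0. Gnb2l1, which encodes the small-subunit scaffold RACK1, had 161, 163 and 175 CPM with shRNA A, 175, 189 and 161 CPM with shRNA B, and 157, 156 and 155 CPM with the control shRNA. Every hairpin library lies above every control, with log2 fold changes of 0.09 ± 0.07 and 0.17 ± 0.07 (SE, edgeR adjusted p = 0.814 and 0.335).

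Other genes of translation were described by lists. Of 22 other mRNAs known for a TOP start, such as those of elongation factors, 0 were called, and 15 were above 0 with shRNA A (median 0.03) and 19 with shRNA B (median 0.10). Of 45 initiation factors, 1 was called higher with shRNA B (all genes: 1.02%), and the medians were -0.01 and 0.02. The 62 ribosome biogenesis factors had 0 calls and medians of -0.03 and -0.01, and the 17 genes of the S6 kinase and TOR pathway 0 calls and medians of -0.04 and -0.00. The 75 mitochondrial ribosomal protein genes, which build the separate ribosome of mitochondria, had 0 calls and medians of 0.03 and 0.02. The cytosolic ribosomal protein genes thus had medians of 0.08 and 0.13 beside medians between -0.04 and 0.10 in these 5 lists, a difference that was not tested.

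Marker sums of cell types differed between groups in some lists. The 12 microglia markers summed to 584.8 to 661.2 CPM with shRNA A, 661.6 to 744.5 CPM with shRNA B and 550.4 to 588.7 CPM with the control shRNA, and 3 of 12 were called higher with shRNA B, where 1.02% of all genes were called in either direction. The 10 oligodendrocyte markers summed to 4412 to 6920 CPM with shRNA A, 3545 to 7242 CPM with shRNA B and 3140 to 5115 CPM with the control shRNA, with 0 called and overlapping groups. The 12 neuron markers summed to 16240 to 17310 CPM with shRNA A, 16420 to 17100 CPM with shRNA B and 16500 to 18610 CPM with the control shRNA, again with 0 called and overlap. The 8 meninges markers summed to 55.75 to 67.36 CPM with shRNA A, 55.45 to 62.6 CPM with shRNA B and 68.24 to 124.9 CPM with the control shRNA, and 1 was called lower with shRNA B. With shRNA A and shRNA B, 11 of the 12 neuron markers had log2 fold changes below 0 (medians -0.08 and -0.12). All 8 meninges markers were below 0 with both (medians -0.52 and -0.60). Above 0 were 10 and 9 of the 10 oligodendrocyte markers (medians 0.43 and 0.31). So were 11 of the 12 microglia markers with each hairpin (medians 0.15 and 0.35). Astrocyte markers above 0 were 8 and 3 of 10, endothelium markers 4 and 2 of 8. Of the neuron markers, Camk2a alone averaged 8280 CPM. Oligodendrocyte markers were at 6653 CPM in shRNA A replicate 3, where the summed CPM of the ribosomal protein genes was highest (3224 CPM). The oligodendrocyte markers were at 3545 CPM in shRNA B replicate 2. In that library the ribosomal protein genes had their highest median and share of counts. The astrocyte (10 genes, 1 called higher with shRNA B) and endothelium (8 genes) sums overlapped between all groups, and none of the markers was at 0 in all libraries. The part of these markers in the ribosomal protein values was not tested.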

How the data were processed

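RNA was measured in 9 libraries. The authors deposited whole-number read counts per gene, raw per the file headers. The deposited table also gives, per the file headers, a normalized mean (signal), log2 fold changes, a test score and p-values, of which only log2 values and p-values were used. Per the submitters' processing notes, the build was mm9 and the tools included HTSeq 0.6.1, TopHat 1.4.1 and, for testing, DESeq2 1.4.5. Settings and annotation are not given in the sources used here. Reads that fit several genes, or an overlapping antisense gene, may be lost or split, since strand was not kept.

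Counts were tested in R 4.3.3 with edgeR 4.0.16, after filterByExpr and TMM scaling, by a quasi-likelihood fit with robust estimation and one spread for the 9 libraries. P-values were two-sided and adjusted by Benjamini-Hochberg over all 16438 genes tested, with a threshold of 0.05. The tests rest on 3 libraries per group, and the design gives 1 animal for each. DESeq2 1.42.0 and limma-voom 3.58.1 were alternatives, as were other scaling, no low-count filter, only the groups compared, a replicate block and leaving out each library. The procedure was tested on simulated counts. Exon lengths, GC content and the 50-base stretches came from GENCODE M21 (GRCm38), and chromosomes from the deposited table, with no coordinates carried between builds. The start windows came from RefSeq on GRCm38.p6. A gene was named when it had 1 of the 5 smallest p in a contrast, 1 of the 5 highest or lowest levels per length, a known role on a fixed list, or a call. A few genes that this rule picks are not reported here. Members, lists and rules were chosen with earlier results of these data known. Libraries of a group differed by more than counting noise (chi-square per degree of freedom of 8.32 to 22.1), so none was a repeat of another. Intervals and floors cover counting error only.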

Additional observations from a re-analysis of the deposited data

Results flagged for a closer look

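Rpl9, a gene of the large subunit, drew attention because both hairpins lay on opposite sides of the control mean in every library. It had 5.02, 4.78 and 4.44 CPM with shRNA B, 3.96, 3.99 and 4.03 CPM with shRNA A, and 4.75, 4.11 and 4.35 CPM with the control shRNA. The log2 fold change of shRNA B minus shRNA A was 0.25 ± 0.11 (SE), with an unadjusted edgeR p of 0.0485 and an adjusted p of 0.532, so the difference between the hairpins did not pass the test.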

How the results depend on the processing

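The count of ribosomal protein genes past the threshold was 0 in all 4 contrasts under every scaling, filter, limma-voom and 2-group alternative run, with one exception for shRNA B, where it was 1 with DESeq2's Wald test (Rpl13a). Leaving out 1 library at a time gave 0 to 1 for shRNA B, the 1 being Rpl13a without shRNA B replicate 1, and 0 elsewhere. The labels do not say what a replicate number shares. Of 9 pairs of libraries with the same number, 2 had deviations correlated above 0.1 (range -0.13 to 0.27). Of the 9 libraries, 5 correlated best with their own number. Such correlations cannot settle whether the animals were paired, so the main fit used no pairing. With the replicate number as a block, 0 members were called in each contrast and the family medians were 0.080, 0.132, 0.109 and 0.049 for shRNA A, shRNA B, their mean and shRNA B minus shRNA A. Leaving out 1 library gave family medians of 0.046 to 0.107, 0.082 to 0.164, 0.078 to 0.134 and 0.003 to 0.077. Without its 3 highest members the family's mean share of counts was 0.215% with shRNA A, 0.22% with shRNA B and 0.199% with the control shRNA. Of 60 named fold changes under 1075 alternatives, 1053 kept direction and side of the threshold, 2 passed the threshold (Rpl13a, as above) and 20 in 12 of the fold changes changed sign. With total library counts Rplp1 was 0.02 for shRNA B, against -0.01. Leaving out libraries gave, for shRNA A, -0.02 to 0.12 for Rpl13a, -0.07 to 0.14 for Rps27l, -0.08 to 0.14 for Rplp1, -0.26 to 0.07 for Rps6, -0.03 to 0.01 for Rpl3 and -0.11 to 0.03 for Rpl39. For shRNA B it gave -0.06 to 0.04 for Rps19, -0.06 to 0.06 for Rplp1, -0.05 to 0.28 for Rps6, -0.14 to 0.06 for Rpl5, -0.16 to 0.09 for Rpl10 and -0.02 to 0.05 for Rpl3. No direction is given for these, and the cause was not tested. Over all genes, edgeR called 4 with shRNA A, against 43 with DESeq2, 18 with only the compared groups, 9 with no filter, 2 without robust estimation and 1 with limma-voom, and 167 with shRNA B, against 386, 78 with limma-voom and 42 with only the compared groups. For the mean of both it called 16, against 243 with DESeq2, 67 with no filter and 31 with the block, and for shRNA B minus shRNA A 0, against 123 with DESeq2, 21 with no filter and 1 with the block. The genes at about 1 CPM, such as Rps29 with 23 or 24 reads per control library, are limited by depth.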
